A study of Mus musculus with 6 samples.

Results

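Slc44a5, Tmem85, Uprt, Tmem231, Gopc, Ogfod1, Synrg and Nkap are 8 mouse genes with a seed site for the microRNA miR-451a in the 3' untranslated region (3' UTR). Their messenger RNA was higher in fetal livers without the miR-144/451 locus than in wild-type fetal livers. They were chosen by those properties, in these same libraries, from a table of 34542 genes. The table held 262 tested genes with a miR-451a site, and 31 of them were called higher in the knockout. Ordered by the size of the log2 change among those 31, the 8 genes stood at ranks 2, 3, 4, 8, 10, 11, 13 and 14. The site and the higher level are therefore the terms of the choice and not results. The choice did not use the kind and place of each site, or the intron counts of each gene. Nor did it use the genomic neighbours of each gene or the other genes of its complex or pathway. The levels given below come from the same gene counts that the choice used.

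The libraries were made from polyadenylated RNA of fetal liver cells, the same number for each, from C57BL/6J mouse embryos. Of the 6 libraries, 3 were from wild-type embryos (WT, replicates 1, 2 and 3) and 3 from embryos of genotype miR-144/451-/- (KO, replicates 4, 5 and 6). The labels do not give a treatment, embryo age, embryo sex, the kind of deletion, or whether embryos were pooled for a library. The p-values here measure the spread between these libraries only. The HITS-CLIP data that the design text names were not analysed here.

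MicroRNAs guide Argonaute proteins to messenger RNAs through their seed, the bases near the 5' end, and the bound messenger RNA is usually destabilised or translated less. miR-451a is highly abundant in maturing red cells, the main product of the fetal liver, and it is matured by the slicing activity of AGO2 instead of by Dicer. It is transcribed together with miR-144 from a locus driven by the erythroid factor GATA1.

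The mature microRNAs of the deleted locus are shown because their seeds define the sites; capitals mark the seed, bases 2 to 8 counted from the 5' end. Both are from RefSeq, build GRCm38.p6, where miR-451a lies at chr11:78073186-78073207 and miR-144-3p at chr11:78073047-78073066, on the plus strand.
miR-451a: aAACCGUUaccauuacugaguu
miR-144-3p: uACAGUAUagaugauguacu

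The 8 sites are shown because they are the stretch all 8 messages share. Each line gives 30 bases of the sense strand of the longest annotated 3' UTR (GENCODE, build GRCm38), 5' to 3'. Capitals mark the match to the seed, AACGGTT, and the A that follows it in an 8mer site.
Slc44a5: atagaaactggAACGGTTtttaattcagtt
Tmem85: tcaataaattaAACGGTTgagaacaatgct
Uprt: aaggaaatcaaAACGGTTctttggttgttg
Tmem231: acttcagagacAACGGTTtttccagggctg
Gopc: ctgcagtacaaAACGGTTttctttaggcaa
Ogfod1: actttgttgctAACGGTTActtttgaagct
Synrg: cagcaaaggaaAACGGTTAgcagcactgaa
Nkap: gtgagatatagAACGGTTgccagtttgtta

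Each of the 8 genes had 1 miR-451a site in that UTR. A 3' UTR was annotated for 20302 genes of the table, and 1.694% of these genes held a miR-451a site, 0.064% of them 2 or more. Only Ogfod1 and Synrg had an 8mer, the match that is followed by an A. Such a site was present in 0.325% of all these UTRs. Since the 8 genes were chosen for having a site, the nearer comparison is with the 344 genes that held one. Of those, 66 had an 8mer. The other 6 genes had the match without that A (a 7mer-m8 site): the next base was T in Slc44a5, Tmem231 and Gopc, G in Tmem85 and Nkap, and C in Uprt.

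The sites lay at very different places. Tmem85 had the shortest UTR, 308 bases, with its site 18 bases from the UTR's end (chr2:112363029-112363035, minus strand). Tmem231 had its site 131 bases into a UTR of 1921 bases (chr8:111913795-111913801, minus strand). These are the nearest to either end of a UTR among the 8. The Slc44a5 site began at base 1199 of 1636 (chr3:154271285-154271291, plus strand), and the Uprt site at base 939 of 1228 (chrX:104507201-104507207, plus strand). The Gopc site began at base 576 of 2699 (chr10:52339141-52339147, minus strand). In Ogfod1 the site began at base 2036 of 3581 (chr8:94066376-94066382, plus strand). No place along the UTR was common to these sites. The Synrg site began at base 1585 of 3650 (chr11:84042513-84042519, plus strand), and the Nkap site at base 2516 of 2781 (chrX:37150481-37150487, plus strand). The bases around the match were 45.5% A or T in Tmem231 and 77.3% in Tmem85, with the other 6 between.

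Sites for the other microRNA of the locus were found in Gopc and Ogfod1. Gopc also held an 8mer for miR-144-3p at base 1131, and Ogfod1 held 7mer-m8 sites for it at bases 1965 and 2760. The other 6 UTRs held none, and over all annotated UTRs 12.107% held a miR-144-3p site. That share is not matched for length: the median UTR had 989 bases over all genes and 2158 bases in genes with a miR-451a site. Where a gene had more than 1 annotated 3' UTR, the site was not always kept. It was missing from 1 of 4 models of Gopc, which ends after 432 bases, and from 1 of 2 models of Synrg, which has a UTR of 26 bases. In the other 6 genes every annotated model held it. The counts are per gene, so which model was present was not measured.

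**Figure D1:**
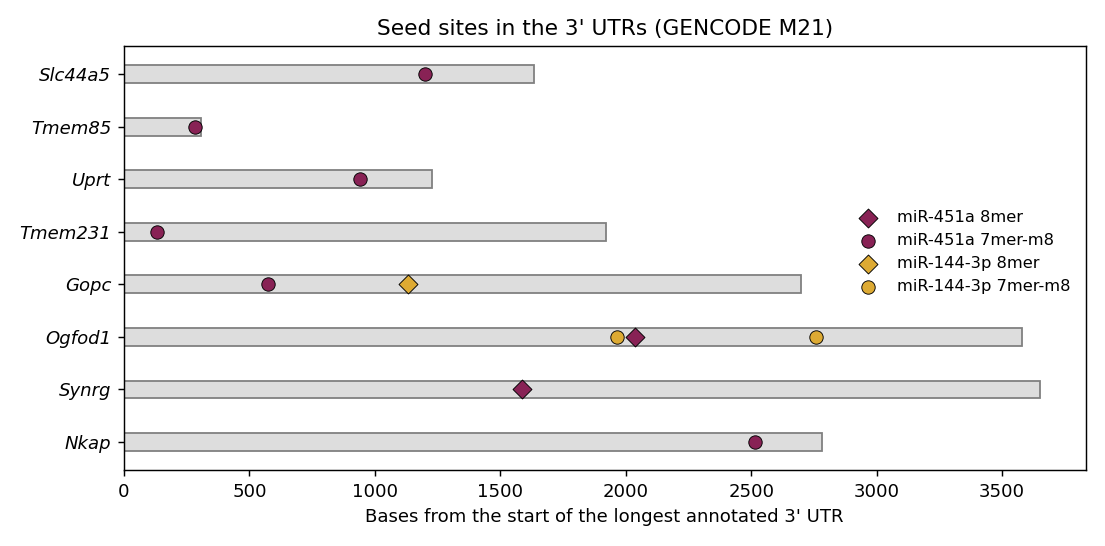
Longest annotated 3' UTR of each gene (grey bars, length in bases from the stop codon side) with the miR-451a and miR-144-3p seed sites as points and diamonds by kind of site. Tmem231 has its site near the start and Tmem85 and Nkap near the end, and miR-144-3p sites appear only in Gopc and Ogfod1.

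All libraries were deep, with 24659978 to 44700229 gene counts. The deletion was visible in the gene counts: the 3 WT libraries held 323, 446 and 418 counts of Mir451, the KO libraries 3, 2 and 4. Hepatocyte markers (10 genes such as Alb) varied within both groups, with summed levels of 8460 to 54300 CPM in WT and 12400 to 44500 in KO (CPM, counts per 1000000 of the scaled library size). The highest were in WT replicate 2 and KO replicate 6, and 0 of 10 were called by edgeR, also at an unadjusted p under 0.05 and by DESeq2. Erythroblast markers summed to 21700 to 30000 CPM in WT and 16000 to 18900 in KO. Of these 10 markers 2, Tfrc and Epb4.2, were called lower by edgeR, and 8 were lower by DESeq2. Of all 15105 tested genes edgeR called 1.45% lower, and DESeq2 called 645 genes lower. In bulk RNA, fewer cells of a type and less RNA per cell cannot be told apart. Summed macrophage markers were 266 to 651 CPM in WT and 306 to 455 in KO, megakaryocyte markers 179 to 352 and 187 to 309, and endothelial markers 83.6 to 248 and 110 to 247. Neutrophil and mast cell markers summed to 1750 to 2850 CPM in WT and 1240 to 2270 in KO. None of these 4 lists had a gene called by edgeR, at an unadjusted p under 0.05 or by DESeq2, and no marker was at 0 in all libraries. The part of cell composition in the 8 genes' levels was not tested. Only hepatocyte marker level was put in the model, with the values given after the levels. That refit cannot decide the question, because hepatocyte marker ranges overlapped between WT and KO and the genes were chosen on the same counts. Erythroblast marker level was not put in the model.

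By the choice of the genes all 8 were called higher in KO, with log2 changes of 0.75 to 1.69 and adjusted p of 0.00985 to 0.0347 by edgeR's quasi-likelihood test with Benjamini-Hochberg adjustment over 15105 genes. The same call was made for 276 genes, 1.83% of those tested. In all 8 genes every KO library was above every WT library, as for 11.8% of tested genes. The median log2 change was 0.87 for the 8 genes and -0.03 for all tested genes, and nothing is read from either contrast because the choice used them.

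Slc44a5 encodes a member of the choline transporter-like family of membrane proteins (ENSMUSG00000028360.9, chromosome 3). It had 2.55, 1.85 and 3.03 CPM in WT replicates 1 to 3 and 8.77, 7.94 and 7.17 CPM in KO replicates 4 to 6. The lowest KO library was thus 2.37 times the highest WT library, the widest gap of the 8. The WT mean was 2.48 ± 0.592 and the KO mean 7.96 ± 0.803 CPM (mean ± SD over 3 libraries, here and below), and the log2 change was 1.69 (SE 0.22). These CPM rest on 65 to 85 counts per WT library and 296 to 412 per KO library. Among 11 tested genes of choline transport and phosphatidylcholine synthesis, 0 were called higher and 1 lower. The gene called lower was Pcyt1a, the rate-limiting enzyme of that pathway, with 215 ± 16.6 CPM in WT and 143 ± 4.16 in KO. Its log2 change was -0.58 (SE 0.08) and its adjusted p 0.0238 by edgeR. Its WT libraries had 232, 198 and 215 CPM and its KO libraries 143, 148 and 140 CPM, so the groups did not overlap. DESeq2 made the same calls on that list.

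Tmem85, now named Emc4, encodes a subunit of the ER membrane protein complex, which inserts membrane proteins into the endoplasmic reticulum (ENSMUSG00000027131.3, chromosome 2). Its levels were 17, 20.1 and 17.2 CPM in WT and 42.6, 40.2 and 38.5 CPM in KO, with no overlap and little spread on either side. The means were 18.1 ± 1.75 and 40.4 ± 2.04 CPM, a log2 change of 1.16 (SE 0.10) and the smallest adjusted p of the 8. Its change was not seen as a call in the other subunits. Of 8 tested, 0 were called in either direction by edgeR, at an unadjusted p under 0.05 or by DESeq2, and their median log2 change was -0.03. The 2 most abundant of these were 2310044H10Rik, now Emc10, at 63.9 ± 5.02 CPM in WT and 59.2 ± 3.30 in KO, and Tmem111, now Emc3, at 56.3 ± 2.43 and 54.2 ± 0.739 CPM. Emc1 was not among the 8, since its name in the table was not identified from the reference.

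The strand setting of the counting is not given in the sources used here, and without strand the reads of overlapping genes cannot be told apart. Exon overlaps of Slc44a5, Gopc and Nkap with other genes covered 0.8% to 1.6% of their exon bases.

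Tmem231 encodes a membrane protein of the transition zone, the gate at the base of the primary cilium (ENSMUSG00000031951.8, chromosome 8). It had 6.44, 5.82 and 6.64 CPM in WT and 12.1, 13.4 and 10.3 CPM in KO. KO replicate 6 was the lowest of the KO libraries and was still 1.55 times the highest WT library. The means were 6.30 ± 0.430 and 11.9 ± 1.56 CPM, a log2 change of 0.92 (SE 0.15). Of 17 tested transition zone genes, 0 were called. An unadjusted p under 0.05 was reached by 1 with a higher and 2 with a lower level, and DESeq2 called 1 higher and 0 lower. The most abundant were Cep290, which tethers the ciliary membrane to its microtubules, with 62.0 ± 11 CPM in WT and 46.9 ± 1.52 in KO (adjusted p = 0.206, edgeR), and Ahi1, with 33.3 ± 2.91 and 27.5 ± 0.766 CPM (adjusted p = 0.211, edgeR). The median log2 change of the list was -0.08.

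Gopc and Synrg both belong to traffic at the Golgi. Gopc encodes a PDZ-domain protein of the trans-Golgi that directs membrane proteins such as CFTR to lysosomes (ENSMUSG00000019861.15, chromosome 10). Its levels were 18.8, 21.4 and 17.6 CPM in WT and 33.9, 35.4 and 33.3 CPM in KO. The KO libraries lay closer together than the WT libraries, and the groups were far apart. The means were 19.3 ± 1.97 and 34.2 ± 1.09 CPM, a log2 change of 0.83 (SE 0.10). Of 13 tested Golgi matrix genes and GOPC partners, 2 were called higher and 0 lower, with a median log2 change of 0.09. Gorasp2, a stacking protein of the Golgi, rose by 0.60 on the log2 scale (SE 0.10, adjusted p = 0.0350 by edgeR), with 49.6 ± 5.94 CPM in WT and 75.3 ± 3.70 in KO. Gcc2, a tether for vesicles at the trans-Golgi, rose by 0.40 on the log2 scale (SE 0.07, adjusted p = 0.0403 by edgeR), with 35.6 ± 0.795 CPM in WT and 47.1 ± 1.62 in KO.

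Synrg encodes synergin gamma, which binds the clathrin adaptor AP-1 at the trans-Golgi (ENSMUSG00000034940.15, chromosome 11, the chromosome of the deleted locus). It was the most abundant of the 8 in CPM, with 68.1, 58.5 and 62.4 in WT and 109, 112 and 101 in KO. No library of one group came within the range of the other. The means were 63.0 ± 4.85 and 107 ± 5.94 CPM, a log2 change of 0.77 (SE 0.09). Of 16 tested genes of AP-1, its partners, the GGA adaptors and clathrin, 2 were called higher and 0 lower by edgeR and 4 higher and 0 lower by DESeq2, with a median log2 change of 0.06. Ap1g1 encodes the gamma subunit of AP-1, the subunit synergin gamma binds. It had 55.5, 70.6 and 59.0 CPM in WT and 110, 104 and 112 CPM in KO, with no overlap. Its log2 change was 0.82 (SE 0.10, adjusted p = 0.0185, edgeR), close in size to that of Synrg itself. Clint1, an epsin-like clathrin partner, rose by 0.45 on the log2 scale (SE 0.09, adjusted p = 0.0481 by edgeR), with 261 ± 9.85 CPM in WT and 355 ± 22.3 in KO. Clint1 had 1 miR-144-3p site and no miR-451a site, and Ap1g1 had neither.

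Uprt and Ogfod1 are named for enzymes. Uprt is the vertebrate relative of uracil phosphoribosyltransferase, an enzyme of pyrimidine salvage (ENSMUSG00000073016.3, chromosome X). It had 3.59, 4.05 and 3.57 CPM in WT and 8.90, 8.28 and 7.80 CPM in KO. Like Slc44a5 it was a gene of low level, with 86 to 142 counts per WT library, yet its libraries were tightly grouped. The means were 3.74 ± 0.270 and 8.33 ± 0.553 CPM, a log2 change of 1.15 (SE 0.14). Of 16 tested genes of pyrimidine synthesis and salvage 0 were called by edgeR, and both an unadjusted p under 0.05 and DESeq2 picked out 1 higher and 1 lower. Dck, the kinase of deoxycytidine salvage, had 357 ± 66.1 CPM in WT and 210 ± 18.8 in KO. Its adjusted p of 0.0547 (edgeR) just missed the threshold, at a log2 difference of -0.77 (SE 0.15). Cad, which starts pyrimidine synthesis, had 188 ± 25 and 210 ± 34.3 CPM (adjusted p = 0.744, edgeR).

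Ogfod1 encodes an oxygenase that hydroxylates a proline of the ribosomal protein Rps23 (ENSMUSG00000033009.15, chromosome 8). Its levels were 18.7, 20.3 and 20.3 CPM in WT and 36.9, 34.1 and 33.8 CPM in KO. Its WT libraries had the smallest spread relative to their mean among the genes above 10 CPM. The means were 19.8 ± 0.907 and 34.9 ± 1.69 CPM, a log2 change of 0.82 (SE 0.09). Of 16 tested genes, Rps23 and other 2-oxoglutarate oxygenases, 1 was called higher and 0 lower, with a median log2 change of -0.03. The called gene was Fto, an RNA demethylase, which rose by 0.37 on the log2 scale (SE 0.07, adjusted p = 0.0465 by edgeR), with 50.8 ± 2.61 CPM in WT and 65.6 ± 0.206 in KO. Egln3, an oxygen-sensing prolyl hydroxylase with a miR-451a site of its own, had 5.62 ± 1.53 CPM in WT and 6.53 ± 2.19 in KO, within the spread of either group (adjusted p = 0.877, edgeR).

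Nkap encodes a nuclear protein named for NF-kB activation, which also acts as a repressor of Notch target genes (ENSMUSG00000016409.4, chromosome X). It had 38.3, 28.1 and 34.8 CPM in WT and 56.4, 59.7 and 53.8 CPM in KO. Its WT libraries were the most spread among the genes above 10 CPM, and the gap to the lowest KO library, 1.40 times, was the narrowest of the 8. The means were 33.7 ± 5.20 and 56.6 ± 2.96 CPM, a log2 change of 0.75 (SE 0.13). Of 12 tested Notch co-repressors and NF-kB genes 0 were called, and 1 was higher both at an unadjusted p under 0.05 and by DESeq2. Ncor1, a nuclear co-repressor, had 309 ± 38.1 CPM in WT and 360 ± 11.3 in KO (adjusted p = 0.400, edgeR), and Spen, another co-repressor of Notch targets, had 151 ± 14.4 and 133 ± 11.1 CPM (adjusted p = 0.480, edgeR). Cir1, a co-repressor of the same list, carries a miR-451a site and had 102 ± 21.4 CPM in WT and 77.1 ± 8.60 in KO (adjusted p = 0.303, edgeR).

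**Figure D2:**
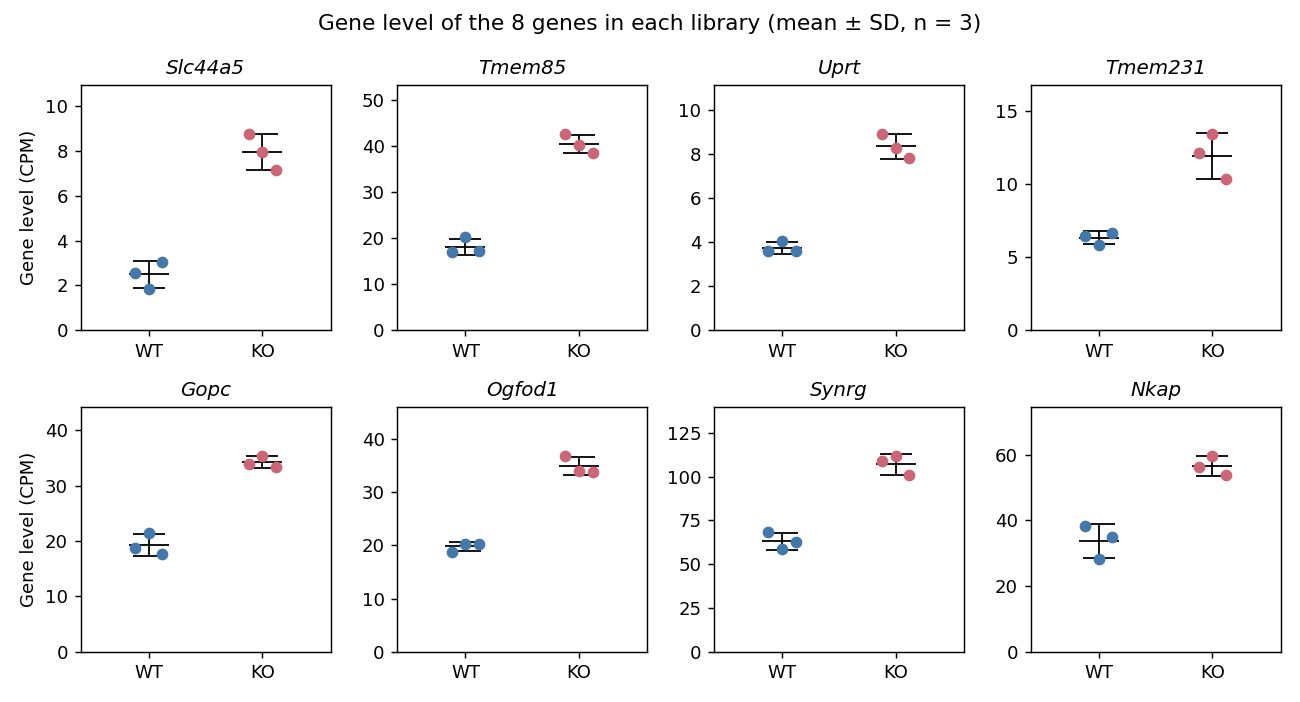
Level of each gene in CPM, with 1 point per library for 3 WT and 3 KO libraries, the mean as a horizontal line and the SD as bars, and the vertical axis of each panel starting at 0. In every panel the 3 KO points lie above the 3 WT points, by the choice of the genes.

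Uprt and Nkap lie on the X chromosome, and sex-linked genes are therefore given beside them. Xist, which is transcribed from the inactive X of females, had 231 to 1170 CPM in WT and 491 to 1020 in KO, and the Y-linked Ddx3y had 38.2 to 92.9 and 30.1 to 77.1 CPM. Both were read in every library, and the ranges of the groups overlapped. The part of sex in the levels of Uprt and Nkap was not tested.

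The calls depended on which libraries were kept. The direction of each log2 change did not, but it could hardly turn. By the choice of the genes every KO library was above every WT library. Without WT replicate 1, WT replicate 3, KO replicate 4 or KO replicate 5, 0 of the 8 genes were called, and all genes called higher then numbered 6, 6, 14 and 5. Without KO replicate 6 only Tmem85 and Synrg were called, with 54 genes higher in all. Without WT replicate 2 all 8 were called, with 483 of 15308 tested genes higher in all. Across those 6 fits the adjusted p of the 8 genes lay between 0.00551 and 0.143 (edgeR). The fits reused the gene counts on which the genes were chosen, so nothing is read from these p-values. With hepatocyte marker level in the model all 8 were called, with adjusted p of 0.000186 to 0.00127 (edgeR). All genes called higher then numbered 1277 of 15105, against 276 without that term. All 8 were also called without WT replicate 2 and KO replicate 6, with adjusted p of 0.00899 to 0.0175 (edgeR). In that fit 580 of 15066 tested genes were higher.

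Compared per length, as CPM per kilobase of merged annotated exons, the 8 genes covered a wide range. In WT the order from the highest was Tmem85 (17.2 ± 1.66), Nkap (7.80 ± 1.20), Synrg (7.20 ± 0.555), Ogfod1 (3.38 ± 0.155), Gopc (1.76 ± 0.180), Uprt (1.62 ± 0.117), Tmem231 (1.17 ± 0.0801) and Slc44a5 (0.347 ± 0.0829). Nkap and Synrg did not differ beyond their spread, nor did Gopc and Uprt. In KO the order was Tmem85 (38.4 ± 1.94), Nkap (13.1 ± 0.685), Synrg (12.3 ± 0.680), Ogfod1 (5.97 ± 0.289), Uprt (3.61 ± 0.240), Gopc (3.12 ± 0.0991), Tmem231 (2.22 ± 0.291) and Slc44a5 (1.11 ± 0.112). The order of the genes was therefore kept except that Uprt stood above Gopc in KO. Among all tested genes, by mean CPM, Slc44a5 and Uprt stood at percentiles 30.7 and 32.4 and Synrg at 81.6, so the 8 were neither all rare nor all abundant.

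Intron counts were the measurement on the same genes that the choice had not used. Reads in introns come largely from RNA that is not yet spliced, so they follow transcription more closely than the mature message does. Introns that stay in the message, or other transcripts inside the gene, can add to them. Of the 8 genes 7 had intron counts, and Tmem85 had no row in that table. By edgeR 0 of the 7 were called, against 0.237% higher and 0.483% lower among 11803 genes tested in introns. At an unadjusted p under 0.05 Slc44a5 and Synrg were higher, and DESeq2 called Slc44a5. In 3 of the 7, Slc44a5, Gopc and Synrg, every KO library was above every WT library, as for 9.92% of genes tested in introns. The median log2 change in introns was 0.30 for the 7 and 0.02 for all tested.

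Slc44a5 had the largest intron difference of the 7. Its introns had 29.5, 27.2 and 20.8 CPM in WT and 48.7, 55.5 and 45.1 CPM in KO (CPM of the intron counts). The groups did not overlap, and the log2 difference was 0.94 (SE 0.18), with an adjusted p of 0.0802 by edgeR and 0.00371 by DESeq2. The gene also held more intron than exon counts: 201 to 289 intron counts per 100 exon counts in WT and 121 to 135 in KO.

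Synrg introns had 48.5, 49.5 and 51.6 CPM in WT and 68.9, 69.6 and 63.1 in KO, a log2 difference of 0.43 (SE 0.13, adjusted p = 0.243, edgeR). Gopc introns had 51.8, 40.3 and 50 CPM in WT and 61.1, 58.2 and 53.5 in KO, a difference of 0.28 (SE 0.15, adjusted p = 0.579, edgeR). In both genes the KO libraries were above the WT libraries, for Gopc by a narrow gap between WT replicate 1 and KO replicate 6. Ogfod1 introns had 61.3, 66.8 and 63.9 CPM in WT and 83.9, 73.5 and 58.3 in KO, so that KO replicate 6 was below every WT library (0.17, SE 0.16, adjusted p = 0.828, edgeR). Nkap introns had 21.1, 26.8 and 11.3 CPM in WT and 25.2, 30.3 and 20.0 in KO, and these groups overlapped as well (0.35, SE 0.32, adjusted p = 0.817, edgeR). Single libraries moved 3 of these 4 intron differences by over 1.5 times. The Gopc difference was 0.16 without WT replicate 2. The Ogfod1 difference was 0.04 without KO replicate 4 and 0.30 without KO replicate 6. For Nkap, leaving out WT replicate 2 gave 0.60, leaving out WT replicate 3 gave 0.03, and omitting KO replicate 5 gave 0.17.

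Tmem231 was the only one of the 7 whose intron estimate was below 0. Its introns had 13.9, 15.8 and 16.0 CPM in WT and 13.4, 11.9 and 10.5 in KO, a log2 difference of -0.35 (SE 0.21, adjusted p = 0.629, edgeR). Every KO library was below every WT library there, by a narrow gap between WT replicate 1 and KO replicate 4. The share of all genes tested in introns with such a separation is not given here. The gene level was higher in every KO library, by the choice of the genes. Uprt introns had 3.00, 1.74 and 2.84 CPM in WT and 4.56, 1.66 and 2.97 in KO (0.30, SE 0.47, adjusted p = 0.941, edgeR). These values rest on 12 to 52 intron counts per library, and the groups overlapped. With WT replicate 2 left out the Uprt difference was 0.07, with KO replicate 4 left out -0.12, and with KO replicate 5 left out 0.55.

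**Figure D3:**
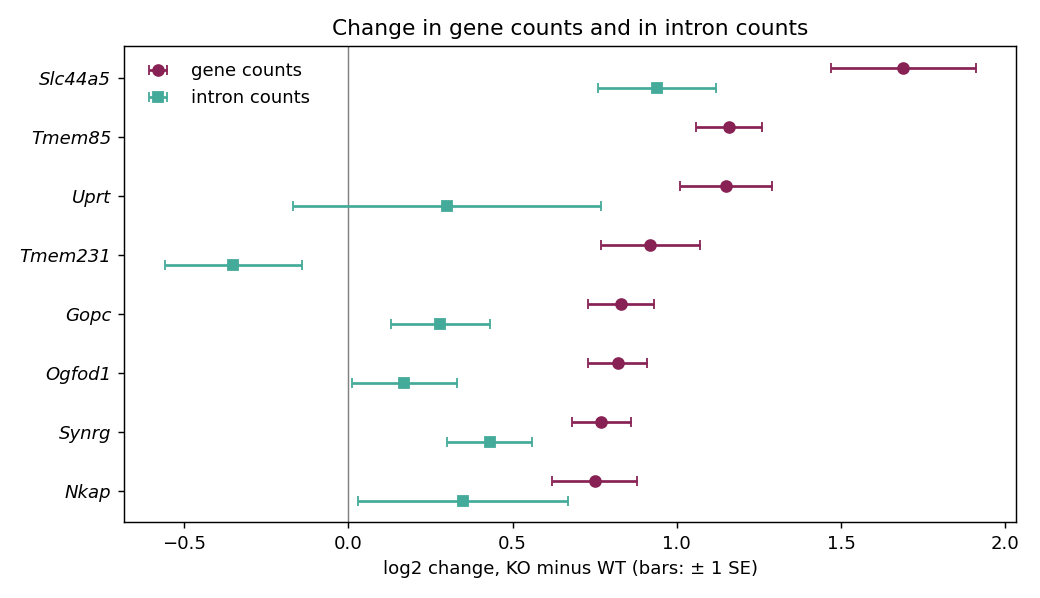
Log2 change KO minus WT of each gene in gene counts (circles) and in intron counts (squares), with bars of 1 SE, from edgeR fits over 3 WT and 3 KO libraries. The gene counts lie between 0.75 and 1.69 and the intron counts between -0.35 and 0.94, with no intron value for Tmem85.

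The exon change minus the intron change of each gene was estimated in 1 fit over exon and intron counts. Since it uses the exon counts on which the genes were chosen, it is a description with no test. The estimate was above 0 in all 7: 1.27 (SE 0.27) in Tmem231, 0.93 (SE 0.50) in Uprt, 0.75 (SE 0.31) in Slc44a5 and 0.67 (SE 0.17) in Ogfod1. Gopc had 0.54 (SE 0.21), Nkap 0.36 (SE 0.38) and Synrg 0.34 (SE 0.15). The median was 0.67 for the 7 and -0.06 for all 11100 genes in that fit. Tmem231 thus had the largest estimate, beside an intron difference below 0 that was not called, and Nkap had an estimate no larger than its SE. The Nkap estimate was -0.02 without WT replicate 2. It was 0.77 with WT replicate 3 left out and 0.22 with KO replicate 6 left out, and the Uprt estimate was 0.60 when KO replicate 5 was omitted. Seen as intron counts per 100 exon counts, Tmem231 had 43.3, 53.4 and 70.6 in WT and 27.0, 15.3 and 20.7 in KO. Synrg, with the smallest estimate, had 14.2, 16.7 and 24.2 in WT and 15.3, 10.7 and 12.8 in KO, where the groups overlapped.

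The relatives of the 8 genes were 112 genes in 8 lists, of which 109 were tested. Of these 5 were called higher, Gorasp2, Gcc2, Fto, Ap1g1 and Clint1, which is 4.59% against 1.83% of all tested genes. Pcyt1a alone was lower, 0.917% against 1.45%. The median log2 change was 0.01 for the relatives and -0.03 for all tested genes. None of the 6 called relatives had a miR-451a site, and neither of the 2 tested relatives with such a site, Egln3 and Cir1, was called. Without WT replicate 1 or 3, or KO replicate 4, 5 or 6, 0 relatives were called, and without WT replicate 2 the counts were 6 higher and 6 lower. With hepatocyte marker level in the model, 14 were higher and 7 lower. DESeq2 called 10 higher and 2 lower.

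**Figure D4:**
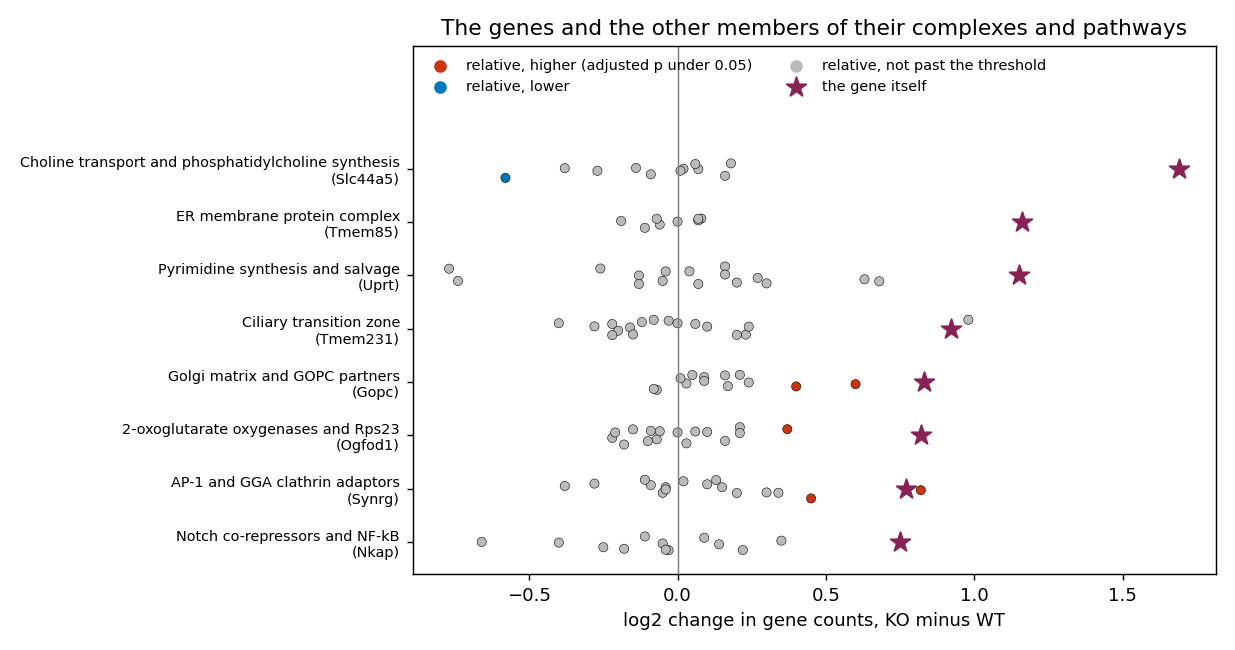
Log2 change in gene counts, KO minus WT, of the 8 genes (stars) and of the tested genes of each one's complex or pathway (points, coloured where the adjusted p was under 0.05 by edgeR). Each star lies at 0.75 or above, while called relatives lie between -0.58 and 0.82 and the ER membrane protein complex has none.

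Some genes beside the 8 on the chromosome were read as well. Within 50 kb (GRCm38) 35 genes were annotated, 27 were in the table and 21 were tested, and edgeR called 0 of them lower, with 3 lower at an unadjusted p under 0.05. Ogfod1 has a neighbour close by on each side. Bbs2, a gene of ciliary traffic 33 bases away, had 9.58 ± 0.698 CPM in WT and 12.7 ± 0.575 in KO, a difference of 0.41 on the log2 scale (SE 0.12, adjusted p = 0.148, edgeR). Nudt21, an RNA 3'-end processing gene 167 bases away, had 56.7 ± 5.10 and 58.9 ± 2.14 CPM (0.06, SE 0.09, adjusted p = 0.898, edgeR). Both were chosen for mention for their distance, after their values were seen.

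The threshold of an adjusted p of 0.05 passed between site genes with changes of like size. Among tested genes with a miR-451a site, those just inside an adjusted p of 0.05 were Cdc14a, with 10.8 ± 1.11 CPM in WT and 18 ± 2.06 in KO, and Cab39, with 131 ± 11.3 and 180 ± 8.30 CPM. Just outside were Kdm5a, with 118 ± 13.6 and 168 ± 6.85 CPM, and Osm, with 2.79 ± 0.282 and 4.82 ± 0.289 CPM. In all 4 the KO libraries were above the WT libraries. The log2 changes were 0.74 and 0.46 inside and 0.51 and 0.79 outside, so genes outside the threshold differed by as much as genes inside it. None of these 4 genes is among the 8.

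The genes whose level followed the mean of the 8 most closely over the 6 libraries, among 10534 tested genes of at least 5 CPM, were Ywhaz (Pearson r of log2 CPM 0.9991), Kctd10 (0.9988), Ssu72 (0.9986), Gm10175 (0.9984) and Chga (0.9977). These are descriptions over 6 points that share libraries and fall into the WT and KO groups. Ywhaz, a 14-3-3 protein gene, had 193 ± 1.32 CPM in WT and 346 ± 12.5 in KO and carries 1 miR-451a site. Kctd10 carries 1 miR-144-3p site and had 34.9 ± 0.519 and 46.9 ± 1.08 CPM. Ssu72, a phosphatase of RNA polymerase II, has neither site and had 35.4 ± 0.463 and 58.3 ± 3.36 CPM. Kctd10 and Ssu72 have no miR-451a site in the annotated UTR. The 8 genes were chosen as higher in KO, so any gene evenly higher in KO comes close to their mean profile. The part of the site in that profile was not tested. Chga, with neither site, had 3.51 ± 0.617 and 115 ± 19.4 CPM, so likeness in profile did not mean likeness in size.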

How the data were processed

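The authors deposited raw counts per gene symbol in a gene table and raw exon and intron counts for 15543 genes. The exon counts equal the gene table for all 15543. STAR and HTSeq, and the builds NCBIM37 and mm10, are named per the submitters' processing notes. Not given in the sources used here are each table's build, its gene models, the definition of an intron and whether strand was used. Per the file headers and names, the gene table leaves out globin and mitochondrial genes.

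The test of KO against WT was run in edgeR 4.0.16 (R 4.3.3): TMM scaling, filterByExpr (minimum count 10, minimum total 15), the two-sided quasi-likelihood F test and Benjamini-Hochberg adjustment over all genes, threshold 0.05. CPM are counts over the TMM-scaled library size, with a pseudocount of 0.1 CPM in log2 profiles. SE came from the F statistic. Exon minus intron used 1 fit over both kinds of counts with a term per library. DESeq2 1.42.0, other scaling, filters, libraries left out and a hepatocyte covariate were alternatives. The scripts were tested on simulated data. Depth was 24659978 to 44700229 counts per library, with no molecular identifiers.

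Symbols matched GENCODE, build GRCm38, directly for 29219 genes and by an older symbol for 2161. Sites were searched in the longest 3' UTR of protein-coding transcripts, sense strand. The genes and lists were chosen with earlier results of these data known. Named were the 8 genes, each list's called genes or its 2 most abundant, called neighbours within 50 kb, the 5 closest profiles, and 4 site genes beside the threshold. Some results that this rule takes are not reported here.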

Additional observations from a re-analysis of the deposited data

How the results depend on the processing

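The log2 changes of the 8 genes in gene counts lay between 0.63 (Nkap) and 1.86 (Slc44a5) under all 11 alternatives. Their direction could hardly turn, since every KO library was above every WT library by the choice of the genes. Leaving out 1 library at a time gave 0 to 8 of the 8 genes called, 5 to 483 genes higher and 7 to 1012 lower, 0 to 6 relatives higher and 0 to 6 lower, 0 to 1 neighbours higher, and 4 to 27 genes higher in introns. DESeq2 called 663 genes higher and 645 lower, 10 relatives higher and 2 lower, 2 neighbours, 1 of the 7 genes in introns and 123 genes higher in introns. Without a filter on low counts 2 relatives were higher. Without WT replicate 2 and KO replicate 6, the libraries of highest hepatocyte marker level, 580 genes were higher and 838 lower, 8 relatives higher and 6 lower, and 1 gene higher in introns. With hepatocyte marker level in the model these were 1277, 1286, 14, 7 and 5, with 3 neighbours higher. Estimates that turned were the Uprt intron difference, -0.12 to 0.55 when 1 library was left out (below 0 without KO replicate 4), and the Nkap exon minus intron estimate, -0.02 (without WT replicate 2) to 0.77 and -0.08 without that library and KO replicate 6. Leaving out 1 library also gave intron differences of 0.16 to 0.35 in Gopc, 0.04 to 0.30 in Ogfod1 and 0.03 to 0.60 in Nkap, and a Uprt exon minus intron estimate of 0.60 to 1.26. The cause was not tested. No paired analysis was possible because the WT numbers (1 to 3) and the KO numbers (4 to 6) do not meet. Uprt had the fewest intron counts of the 7 genes, 141 in all.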
